A study of Mus musculus with 30 samples.

Results

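The circadian clock genes described here are 10 genes of the mouse brain, matched by symbol among the 48820 gene identifiers of the count table: Arntl, Clock, Npas2, Per1, Per2, Per3, Cry1, Nr1d1, Dbp and Bhlhe41. Each symbol had exactly 1 identifier, and all 10 passed the filter on low counts in both tissues. Hippocampus and frontal cortex were taken from adult male wild type C57BL/6J mice, 8 to 12 weeks old when obtained, housed singly under 12 h of light and 12 h of dark. Every mouse, controls included, had drunk corticosterone (CORT, the main rodent glucocorticoid) at 200 mg/L in 0.6% ethanol for 7 days. Each was then injected intraperitoneally on day 8 with 4 mg/kg diisopropyl fluorophosphate (DFP, an acetylcholinesterase inhibitor), and had further 7-day CORT courses in alternate weeks up to 5 weeks. The LPS groups then received 0.5 mg/kg lipopolysaccharide (LPS, a bacterial cell wall component that sets off inflammation) subcutaneously, with tissue taken after 6, 12 or 24 h (4 libraries per tissue and time). The control group received saline, with tissue taken after 6 h (3 libraries per tissue). The clock hour of injection and of collection is not given in the sources used here. Saline tissue came from 6 h alone, so the effects of LPS, of time since injection and of hour of day cannot be told apart in the comparisons of 12 h and 24 h with saline, or among the LPS times.

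The mammalian clock is a feedback loop of transcription. A dimer of ARNTL (also called BMAL1) with CLOCK or its relative NPAS2 binds E-boxes and activates the Per and Cry genes, whose products return to the nucleus and inhibit that dimer. In a second loop the dimer drives Nr1d1, which encodes the repressor REV-ERB alpha, and REV-ERB proteins compete with ROR proteins at response elements of Arntl. Outputs include DBP, a PAR bZIP transcription factor that binds D-boxes, and BHLHE41 (DEC2), which represses at E-boxes. In the forebrain NPAS2 is abundant, and Per1 is also known as a gene that glucocorticoids and neuronal activity induce.

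Promoter windows are shown for the members with an E-box in a window (Per1, Cry1 and Bhlhe41) and for Arntl, with a ROR element. That of Dbp is added because Dbp was called against saline in both tissues. The Dbp window held none of the motifs searched. RefSeq promoter windows of build GRCm38.p6 run from 250 bases before to 50 bases after an annotated start. They were given for 9 of the 10 members, in 13 windows. Capitals mark an E-box (CACGTG), a ROR element (TAGGTCA) or a D-box (TTATGNAA), each searched on both strands, and the motifs did not overlap.
Arntl, second start, chr7:113207261-113207560, plus strand: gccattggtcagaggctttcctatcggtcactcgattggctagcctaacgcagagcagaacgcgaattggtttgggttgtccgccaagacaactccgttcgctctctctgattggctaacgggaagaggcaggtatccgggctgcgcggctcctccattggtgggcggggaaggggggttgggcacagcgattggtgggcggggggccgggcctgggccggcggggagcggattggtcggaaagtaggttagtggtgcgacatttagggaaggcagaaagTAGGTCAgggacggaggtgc
Per1, first start, chr11:69098699-69098998, plus strand: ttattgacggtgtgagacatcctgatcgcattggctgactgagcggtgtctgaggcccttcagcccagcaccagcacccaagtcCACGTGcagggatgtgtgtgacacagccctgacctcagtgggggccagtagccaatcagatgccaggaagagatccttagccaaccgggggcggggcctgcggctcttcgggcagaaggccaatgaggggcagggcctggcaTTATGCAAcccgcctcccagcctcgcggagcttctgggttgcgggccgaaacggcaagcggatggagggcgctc
Cry1, chr10:85185005-85185304, minus strand: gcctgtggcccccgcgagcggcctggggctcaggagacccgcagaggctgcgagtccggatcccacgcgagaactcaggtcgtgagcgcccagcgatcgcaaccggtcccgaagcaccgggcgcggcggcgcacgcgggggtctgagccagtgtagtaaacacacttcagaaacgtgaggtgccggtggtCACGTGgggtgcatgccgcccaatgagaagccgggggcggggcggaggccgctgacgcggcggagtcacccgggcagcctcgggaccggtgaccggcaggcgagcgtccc
Bhlhe41, chr6:145865371-145865670, minus strand: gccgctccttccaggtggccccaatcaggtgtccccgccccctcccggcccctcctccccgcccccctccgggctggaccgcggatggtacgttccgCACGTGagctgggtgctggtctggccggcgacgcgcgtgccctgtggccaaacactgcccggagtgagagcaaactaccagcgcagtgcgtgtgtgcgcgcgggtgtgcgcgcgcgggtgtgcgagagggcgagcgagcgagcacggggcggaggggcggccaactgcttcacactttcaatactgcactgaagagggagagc
Dbp, chr7:45704997-45705296, plus strand: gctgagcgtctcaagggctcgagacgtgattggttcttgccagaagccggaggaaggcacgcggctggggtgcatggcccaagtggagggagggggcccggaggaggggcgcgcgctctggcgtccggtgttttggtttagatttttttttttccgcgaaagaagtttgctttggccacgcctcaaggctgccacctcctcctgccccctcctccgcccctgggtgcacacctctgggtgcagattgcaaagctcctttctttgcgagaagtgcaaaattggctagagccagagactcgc

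The E-box began 166 bases before the start in Per1, 60 bases before it in Cry1 and 153 bases before it in Bhlhe41. These 3 members had 1 such window each, 3 of the 13 member windows, against 7.15% of all 32851 windows. A D-box lay 24 bases before the Per1 start, and the window of Per3 held another pair, 205 and 158 bases before its start (3.38% of all windows held one). The ROR element of Arntl lay 30 bases past its second start (2.61% of all windows). No member window held a cAMP response element (TGACGTCA, 1.79% of all windows) or the consensus glucocorticoid response element (0.475%). A match is a description of the window and not a measured binding site, and an absence speaks only of these 300 bases.

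Library totals ran from 16826882 to 33034295 counts, and the members had 231 to 3683 counts in each library. Levels are given as CPM (counts scaled to library size, with TMM factors), and values in a list follow the mouse codes. The hippocampal marker genes summed to 586 to 694 CPM in hippocampus against 136 to 214 CPM in cortex, and the cortical ones to 152 to 200 CPM against 435 to 678 CPM, as the tissue labels have it. Choroid plexus RNA varied between libraries: Ttr took 0.115% of counts in hippocampus saline mouse A222 and 0.226% in hippocampus LPS 12 h mouse A261. The microglial markers (4 genes) summed to at least 205 CPM in each hippocampus 24 h after LPS, against 109 to 146 CPM after saline. In cortex they summed to at least 139 CPM in each library at 12 h and at least 157 CPM at 24 h, against 97.6 to 138 CPM after saline, without overlap. The oligodendrocyte markers (4 genes) summed to 2184 to 2709 CPM in hippocampus at 24 h, against 1886 to 2216 CPM after saline. The neuron markers (5 genes) summed lower there at 24 h, at 5746 to 5853 CPM against 6043 to 6241 CPM after saline. Taken singly, 0 of these 5 genes passed the edgeR test described below, and their median log2 fold change was -0.1. In cortex at 24 h the neuron marker sums overlapped with saline (6036 to 6875 against 6643 to 7954 CPM). Endothelial markers (4 genes) summed lower at 6 h in hippocampus (113 to 125 against 132 to 140 CPM) and in cortex (122 to 147 against 155 to 182 CPM). Taken singly at 6 h, 1 of these 4 genes passed as lower in hippocampus and 0 in cortex. At 24 h the hippocampal sum lay above saline instead (143 to 154 CPM), with 1 of the 4 genes passing as higher. The part of all these markers in the clock gene results was not tested. In bulk tissue, fewer cells of a type and less RNA per cell cannot be told apart.

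Against saline, the output gene Dbp was higher at 12 h and 24 h after LPS in both tissues. Of the activator genes, Arntl was lower at 24 h in hippocampus and at 12 h and 24 h in cortex, and Npas2 at 12 h and 24 h in hippocampus and at 12 h alone in cortex. Clock passed the test in none of the 20 comparisons made. The Dbp calls and the hippocampal Npas2 calls against saline held under every alternative run, while each Arntl call and the cortical Npas2 call were lost under some. In hippocampus at 6 h, 1 of 10 members passed (Per1, lower), where edgeR's quasi-likelihood test with Benjamini-Hochberg adjustment called 5.11% of all genes (2.96% higher, 2.15% lower). At 12 h, 2 were higher (Dbp, Bhlhe41) and 2 lower (Npas2, Per1), against 6.07% and 6.28% of all genes (12.3% in all). At 24 h, 3 were higher (Dbp, Cry1, Bhlhe41) and 3 lower (Arntl, Npas2, Nr1d1), against 6.76% and 6.6% (13.4% in all). In cortex at 6 h none passed, against 3.5% of all genes (2.3% higher, 1.2% lower); 4 members had an unadjusted p under 0.05 in edgeR, and DESeq2 called 1 and limma-voom 2. At 12 h, 2 were higher (Dbp, Bhlhe41) and 2 lower (Arntl, Npas2), against 4.13% and 2.99% (7.12% in all). At 24 h, 1 was higher (Dbp) and 1 lower (Arntl), against 3.73% and 2.38% (6.11% in all). The changes were small, the largest being the -0.64 of Npas2 in hippocampus at 24 h on the log2 scale. The median log2 fold change of the members lay between -0.12 and 0.01 in these 6 comparisons, and that of all genes tested between 0 and 0.01.

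**Figure D1:**
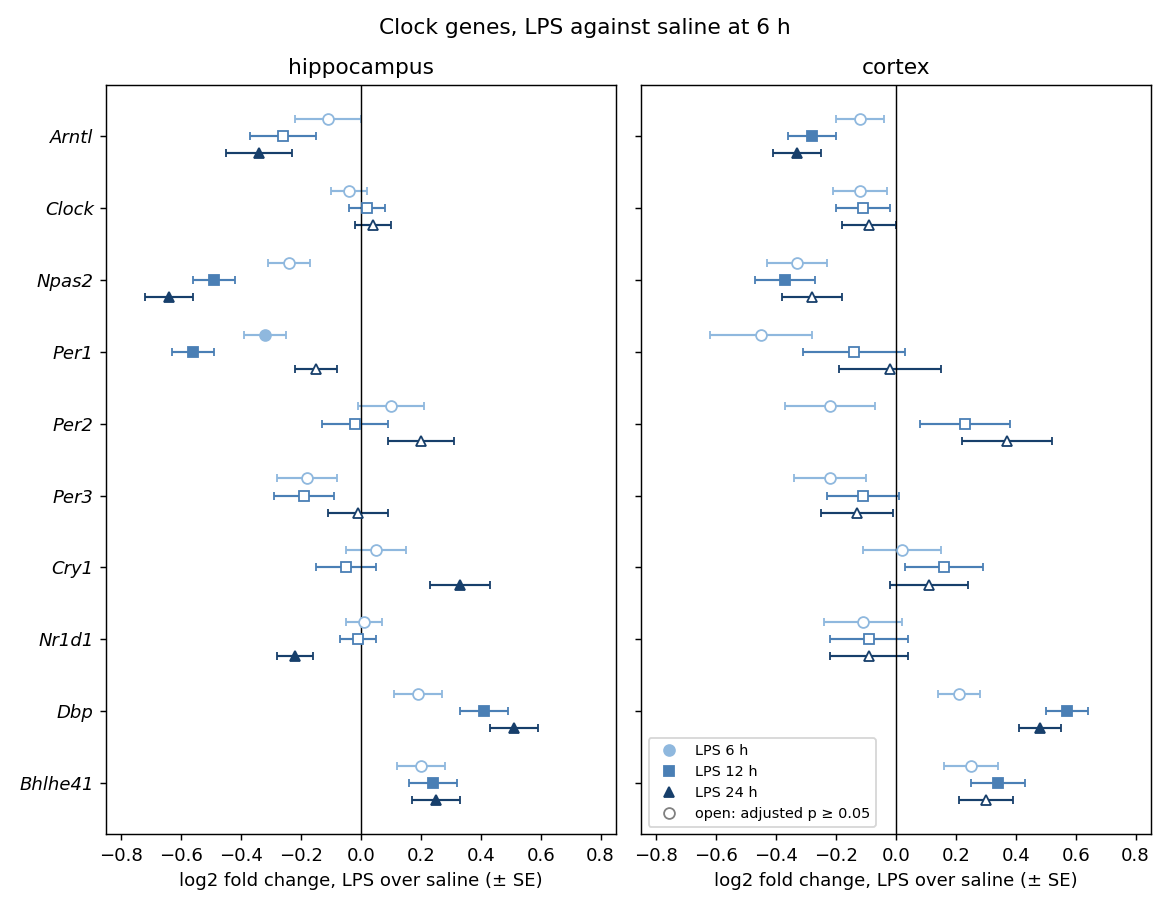
Log2 fold change of each clock gene (rows) after LPS over saline at 6 h, with standard errors, in hippocampus (left) and cortex (right); symbols and shades mark 6, 12 and 24 h, and open symbols missed an adjusted p of 0.05. Dbp stands at 0.41 to 0.57 at 12 h and 24 h in both panels, and Npas2 reaches -0.64 in hippocampus at 24 h.

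Dbp, the PAR bZIP output factor (ENSMUSG00000059824.12, GRCm38 chr7:45705088-45710203), was called against saline at 12 h and 24 h in both tissues. In hippocampus it was at 34.6, 31.3, 32.8 and 35.8 CPM 6 h after LPS, at 40.1, 39.3, 38.2 and 37.5 CPM after 12 h, and at 38.5, 40.4, 46.6 and 41.4 CPM after 24 h, against 28.2, 26.0 and 34.0 CPM after saline. The 12 h and 24 h libraries all lay above all saline libraries, and those of 6 h overlapped with them through saline mouse A226. Dbp was higher by 0.41 ± 0.08 on the log2 scale at 12 h (SE; edgeR adjusted p = 0.000941) and by 0.51 ± 0.08 at 24 h (edgeR adjusted p = 6.74e-05), and at 6 h the difference was 0.19 ± 0.08 (edgeR adjusted p = 0.238).

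In cortex Dbp was at 52.9, 51.3, 50.8 and 57.7 CPM 6 h after LPS, at 71.3, 64.9, 75.1 and 63.4 CPM after 12 h and at 61.7, 62.4, 65.7 and 68.3 CPM after 24 h, against 43.7, 49.1 and 46.0 CPM after saline. All 12 LPS libraries lay above the highest saline library. The log2 differences were 0.57 ± 0.07 at 12 h (edgeR adjusted p = 6.18e-05) and 0.48 ± 0.07 at 24 h (edgeR adjusted p = 0.000389), and 0.21 ± 0.07 at 6 h, which missed the threshold (edgeR adjusted p = 0.137). Between LPS times, Dbp was higher at 24 h than at 6 h in hippocampus (0.32 ± 0.07, edgeR adjusted p = 0.0064) and at 12 h than at 6 h in cortex (0.36 ± 0.07, edgeR adjusted p = 0.0134). All these calls held under every alternative run and without any 1 library. In cortex it was also higher at 24 h than at 6 h (0.27 ± 0.07, edgeR adjusted p = 0.0494), a call lost in limma-voom and without any 1 of 7 of the 8 libraries compared. Exons of Dbp overlap those of Sphk2, on the opposite strand, over 539 bases, and the strand setting of the counting is not given in the sources used here. Sphk2 differed from saline by between -0.27 and -0.01 on the log2 scale in the 6 comparisons with saline, the opposite sign to Dbp, and was lower in hippocampus at 24 h (-0.26 ± 0.07, edgeR adjusted p = 0.0145).

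Bhlhe41, the E-box repressor (ENSMUSG00000030256.11, chr6:145858243-145865558), was at 34.5, 37.7, 36.1 and 39.3 CPM in hippocampus 6 h after LPS, at 36.3, 35.6, 40.4 and 38.5 CPM after 12 h and at 37.9, 36.5, 43.1 and 34.9 CPM after 24 h, against 32.7, 28.0 and 35.4 CPM after saline. Saline mouse A226 lay within the LPS ranges of 6 h and 24 h, and every 12 h library lay above saline. The log2 differences were close to each other, at 0.20 ± 0.08, 0.24 ± 0.08 and 0.25 ± 0.08 for 6, 12 and 24 h (edgeR adjusted p = 0.209, 0.0473 and 0.0346). The calls at 12 h and 24 h were lost in 8 and 7 of 16 alternatives. Both were lost without saline mouse A222 or A224, that of 12 h also without 12 h mouse A258, A260 or A261, and that of 24 h without 24 h mouse A274 or A276.

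In cortex Bhlhe41 was at 35.3, 38.8, 36.7 and 43.7 CPM after 6 h, at 39.3, 43.5, 45.5 and 37.2 CPM after 12 h and at 39.7, 35.5, 43.5 and 41.9 CPM after 24 h, against 34.5, 33.8 and 30.3 CPM after saline. All 12 LPS libraries lay above the 3 saline libraries. The 12 h difference passed (0.34 ± 0.09, edgeR adjusted p = 0.0317), and was lost without any 1 of the 3 saline libraries or 12 h mouse A259 or A260; those at 6 h (0.25 ± 0.09) and 24 h (0.30 ± 0.09) missed it (edgeR adjusted p = 0.167 and 0.0735). Its exons share 1280 bases with the opposite-strand gene Gm43909, which had too few counts to be tested.

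Arntl, whose product BMAL1 is the obligate partner of the activating dimer (ENSMUSG00000055116.8, chr7:113207465-113314126), was at 25.1, 22.9, 24.5 and 20.3 CPM in hippocampus 6 h after LPS, at 20.1, 21.2, 20.3 and 21.8 CPM after 12 h and at 24.1, 20, 14.7 and 20.5 CPM after 24 h, against 25.4, 26.6 and 23.2 CPM after saline. The 12 h libraries all lay below saline, while at 24 h mouse A274 lay within the saline range and mouse A276 far below it. Arntl fell at 24 h (-0.34 ± 0.11, edgeR adjusted p = 0.0436), and the differences at 12 h (-0.26 ± 0.11, edgeR adjusted p = 0.146) and 6 h (-0.11 ± 0.11, edgeR adjusted p = 0.733) did not pass. The call at 24 h was lost in 8 of 16 alternatives, among them those without 24 h mouse A275, A276 or A278 and without saline mouse A222 or A224.

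In cortex Arntl was at 22.3, 25.5, 24.4 and 22.8 CPM 6 h after LPS, at 21.8, 22.8, 18.4 and 22.3 CPM after 12 h and at 20.9, 20.1, 20.4 and 20.9 CPM after 24 h, against 26.4, 24.5 and 26.9 CPM after saline. All 12 h and 24 h libraries lay below saline, and the 4 libraries of 24 h spanned less than 1 CPM. Arntl was lower at 12 h (-0.28 ± 0.08, edgeR adjusted p = 0.0363) and at 24 h (-0.33 ± 0.08, edgeR adjusted p = 0.014), and the 6 h difference was -0.12 ± 0.08 (edgeR adjusted p = 0.413). Without saline mouse A223 or A226 both calls were lost, and scaling by library totals alone also ended both. The 12 h call was lost in 7 of 15 alternatives, among them that without 12 h mouse A260.

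Npas2, which stands in for CLOCK in forebrain (ENSMUSG00000026077.15, chr1:39193731-39363236), had the largest fall of the members in hippocampus. It was at 27.2, 27.8, 27.0 and 27.8 CPM 6 h after LPS, at 22.0, 25.6, 22.7 and 21.6 CPM after 12 h and at 24.1, 21.0, 18.8 and 19.2 CPM after 24 h, against 32.9, 34.0 and 29.8 CPM after saline. Every LPS library, at every time, lay below every saline library, and every 12 h and 24 h library below every 6 h library. The falls were -0.49 ± 0.07 at 12 h (edgeR adjusted p = 6.72e-05) and -0.64 ± 0.08 at 24 h (edgeR adjusted p = 2.26e-06); the 6 h difference, -0.24 ± 0.07, missed the threshold (edgeR adjusted p = 0.0664). It was also lower 24 h than 6 h after LPS (-0.40 ± 0.07, edgeR adjusted p = 0.000834). These 3 calls held under every alternative run.

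In cortex Npas2 was at 33.5, 35.8, 33.2 and 35.6 CPM 6 h after LPS, at 36.1, 37.8, 31.9 and 29.0 CPM after 12 h and at 36.6, 29.7, 40.8 and 36.0 CPM after 24 h, against 46.2, 45.0 and 39.9 CPM after saline. The 6 h and 12 h libraries all lay below saline, and at 24 h mouse A276 reached into its range. Only the 12 h difference passed (-0.37 ± 0.10, edgeR adjusted p = 0.0291; lost in 6 of 15 alternatives, among them those without saline mouse A223 or A224 or 12 h mouse A260 or A261); 6 h stood at -0.33 ± 0.10 and 24 h at -0.28 ± 0.10 (edgeR adjusted p = 0.0843 and 0.122). No comparison between LPS times passed for it in cortex (log2 differences -0.04 for 12 h over 6 h, 0.09 for 24 h over 12 h and 0.04 for 24 h over 6 h). The 24 h difference from saline in hippocampus minus that in cortex was -0.35 ± 0.13, which did not pass (edgeR adjusted p = 0.429, unadjusted p = 0.0113).

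Clock itself (ENSMUSG00000029238.11, chr5:76209868-76304792) stayed within its spread. In hippocampus its groups averaged 78.6 ± 3.28, 81.7 ± 4.01 and 82.6 ± 7.98 CPM at 6, 12 and 24 h after LPS (SD, n = 4), against 80.6 ± 6.71 CPM after saline (SD, n = 3). In cortex they averaged 67.3 ± 8.38, 67.8 ± 6.14 and 69.0 ± 3.51 CPM after LPS, against 73.5 ± 4.56 CPM after saline. All LPS ranges overlapped with saline, and the log2 differences lay between -0.12 and 0.04.

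**Figure D2:**
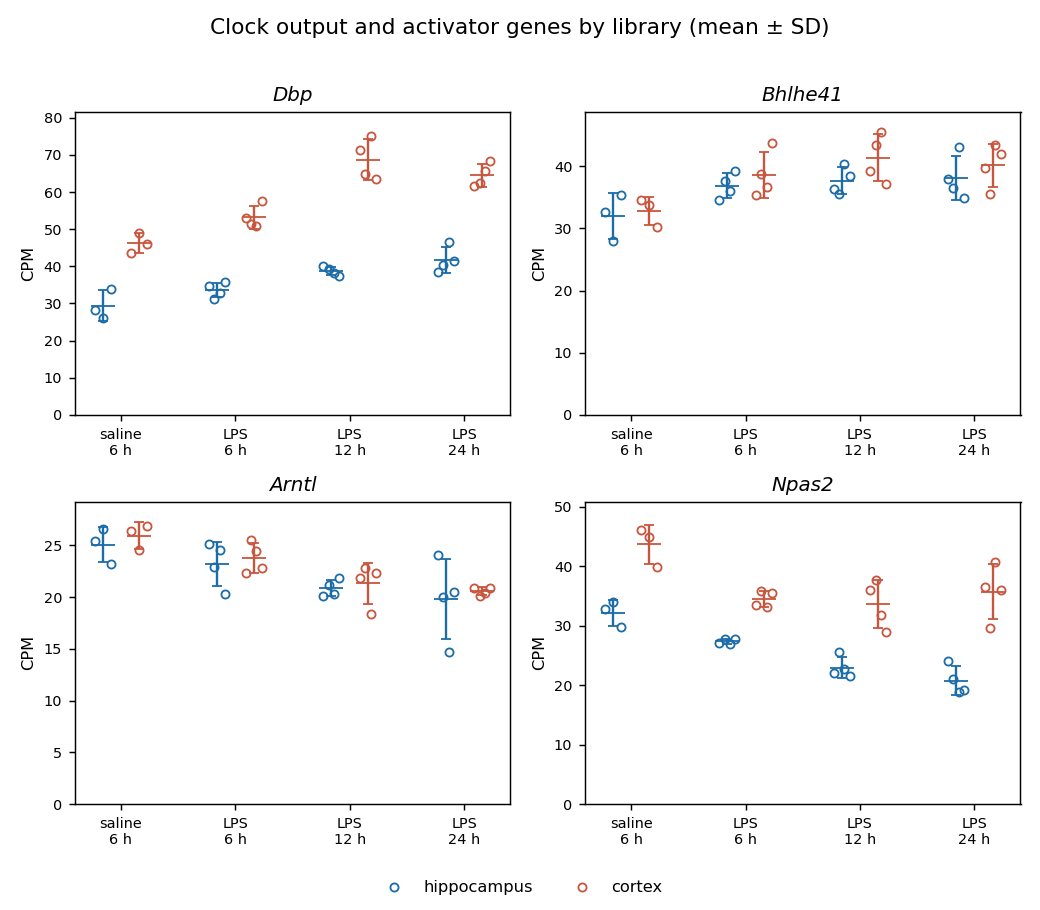
CPM of Dbp, Bhlhe41, Arntl and Npas2 in each library (open points; hippocampus blue, cortex red) with the mean and SD, by group from saline 6 h to LPS 24 h. Dbp in cortex averaged 64.5 CPM 24 h after LPS, against 46.2 CPM after saline, and Npas2 in hippocampus 20.8 CPM against 32.2 CPM.

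Set against each other within a library, Dbp and Arntl moved apart. The ratio of their CPM averaged 1.46 ± 0.202, 1.86 ± 0.113 and 2.20 ± 0.678 at 6, 12 and 24 h after LPS in hippocampus (SD, n = 4), against 1.18 ± 0.253 after saline (SD, n = 3). In cortex it averaged 2.25 ± 0.243, 3.26 ± 0.582 and 3.14 ± 0.146 after LPS, against 1.79 ± 0.189 after saline. In both tissues the ranges of 12 h and 24 h lay wholly above saline. The ratio restates the rise of Dbp and the fall of Arntl given above and is not a separate result. The ratio was highest in hippocampus in 24 h mouse A276, at 3.18, and in cortex in 12 h mouse A260, at 4.08. Those libraries had the lowest Arntl and the highest Dbp of their tissue. They also had the highest Cry1 and Bhlhe41 of their group, and the highest Ciart, a target of the activating dimer whose product represses it (11.8 CPM in A276 and 19.8 CPM in A260). These genes are named here after their values were seen. Among the 3 saline hippocampi, mouse A226 had the highest Dbp and Bhlhe41 and the lowest level of 7 other members, all but Nr1d1.

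**Figure D3:**
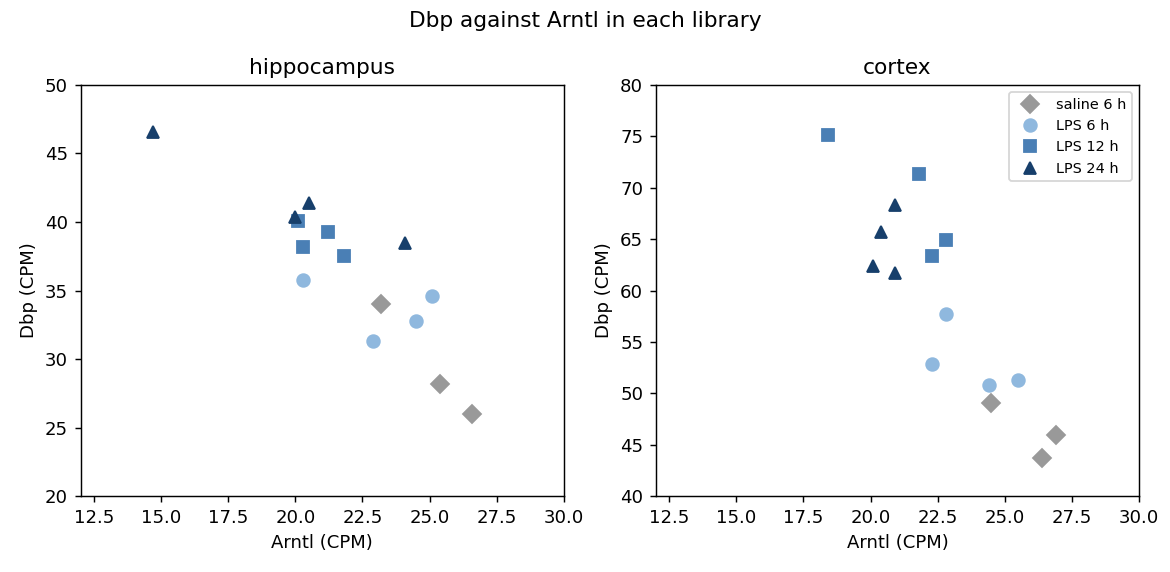
Dbp against Arntl in CPM, 1 point per library, in hippocampus (left) and cortex (right), with symbols for the 4 groups; axes do not start at 0. Libraries of 12 h and 24 h after LPS lie above the saline libraries and to their left. The exception is hippocampal 24 h mouse A274, which lies above them but within their Arntl range (24.1 CPM).

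Per1, an early-responding inhibitor of the loop (ENSMUSG00000020893.17, chr11:69095217-69109960), fell in hippocampus at 6 h and 12 h and stood higher again at 24 h than at 12 h. It was at 71.2, 64.2, 59.6 and 67.2 CPM 6 h after LPS, at 57.2, 60.5, 54.3 and 49.8 CPM after 12 h and at 73.9, 75.5, 78.8 and 67.1 CPM after 24 h, against 89.3, 81.3 and 74.5 CPM after saline. The 6 h and 12 h libraries all lay below saline, and the 24 h libraries all above those of 12 h, with 2 of the 4 in the saline range. Per1 was lower at 6 h (-0.32 ± 0.07, edgeR adjusted p = 0.00785) and at 12 h (-0.56 ± 0.07, edgeR adjusted p = 1.31e-05), and 24 h differed from saline by -0.15 ± 0.07 (edgeR adjusted p = 0.209). At 24 h it was higher than at 12 h by 0.41 ± 0.07 (edgeR adjusted p = 0.00181). The 12 h fall held under every alternative. The 6 h fall was lost without saline mouse A222, which had the highest Per1 and the highest Ttr share of the saline libraries, alone or together with A261, and in a fit of both tissues together. The difference between 24 h and 12 h was lost in that joint fit alone.

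In cortex Per1 was at 60.6, 68.9, 60.8 and 82.5 CPM 6 h after LPS, at 79.4, 72.7, 103 and 84.5 CPM after 12 h and at 113, 114, 74.5 and 69.8 CPM after 24 h, against 85.9, 99.2 and 97.1 CPM after saline. The 6 h libraries lay below saline, and the 24 h libraries split around it. No cortical comparison of Per1 passed (6 h against saline -0.45 ± 0.17, edgeR adjusted p = 0.18; 24 h against 6 h 0.44 ± 0.16, edgeR adjusted p = 0.199). In the comparison of 12 h with 6 h after LPS, the log2 difference in hippocampus minus that in cortex was -0.56 ± 0.19, which did not pass after adjustment (edgeR adjusted p = 0.534, unadjusted p = 0.00696).

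The pair of cortical 24 h mice with high Per1, A274 and A275, stood apart in activity-induced genes as well, 2 of which are given here after their values were seen. Egr1, an immediate early transcription factor, was at 329 and 362 CPM in them, against 129 and 163 CPM in A276 and A278. Fos was at 27.1 and 38.9 CPM in them, against 11 and 11.4 CPM in the other pair. The hippocampi of the same 4 mice held 73.9, 75.5, 78.8 and 67.1 CPM of Per1, without that split. Of 8 immediate early genes, edgeR called none in cortex at any time against saline (1, 0 and 0 at an unadjusted p under 0.05 at 6, 12 and 24 h, and none in DESeq2 or limma-voom). In hippocampus, Ier2 was higher at 6 h (0.52 ± 0.11, edgeR adjusted p = 0.00494), Nr4a1 lower at 12 h (-0.65 ± 0.19, edgeR adjusted p = 0.0435) and Fos higher at 24 h (0.98 ± 0.26, edgeR adjusted p = 0.0219). Between 24 h and 12 h, where Per1 was higher, Junb (0.42 ± 0.08, edgeR adjusted p = 0.00867) and Egr1 (0.75 ± 0.17, edgeR adjusted p = 0.0449) were higher too. The part of these genes in the Per1 result was not tested.

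Per1 is also a textbook glucocorticoid target, and the mice had drunk CORT, so the glucocorticoid-responsive genes are set beside it. Of 10 such genes, 9, 10 and 10 were lower in hippocampus at 6, 12 and 24 h after LPS, and 7, 9 and 9 in cortex, with none higher. Of all genes, 2.15, 6.28 and 6.6% were called lower in hippocampus at these times, and 1.2, 2.99 and 2.38% in cortex. The list was chosen with earlier results of these data known, so these counts are a description and not a test. Sgk1, a kinase gene induced by steroids, was lower in hippocampus at 12 h (-1.36 ± 0.15, edgeR adjusted p = 6.11e-05) and at 24 h (-1.24 ± 0.15, edgeR adjusted p = 0.000115). Plin4, which encodes a lipid droplet coat protein, was lower there at 12 h (-4.43 ± 0.42, edgeR adjusted p = 2.67e-05) and at 24 h (-5.18 ± 0.46, edgeR adjusted p = 1.28e-05). None of the 10 passed in hippocampus between 24 h and 12 h, where Per1 was higher (0 in edgeR, DESeq2 and limma-voom, and 0 at an unadjusted p under 0.05). Their part in the Per1 result was not tested.

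Per2, the Per1 paralogue that also inhibits the dimer (ENSMUSG00000055866.9, chr1:91415982-91459324), was at 34.0, 33.7, 26.7 and 33.3 CPM in hippocampus 6 h after LPS, at 33.3, 26.7, 27.5 and 29.3 CPM after 12 h and at 34.3, 36.8, 29.8 and 36.2 CPM after 24 h, against 33, 31.3 and 24.6 CPM after saline. All ranges overlapped, and no hippocampal comparison passed (24 h against saline 0.20 ± 0.11, edgeR adjusted p = 0.241). In cortex it was at 18.6, 24.6, 17.5 and 26.6 CPM after 6 h, at 33, 29.6, 29.0 and 28.3 CPM after 12 h and at 38.3, 38.4, 24.9 and 30.5 CPM after 24 h, against 23.1, 25.7 and 28.0 CPM after saline. The 12 h libraries all lay above saline and above 6 h, and mice A274 and A275 again led the 24 h group. Against saline no time passed (-0.22 ± 0.15, 0.23 ± 0.15 and 0.37 ± 0.15 at 6, 12 and 24 h; edgeR adjusted p = 0.428, 0.435 and 0.204). Per2 was higher at 24 h than at 6 h (0.59 ± 0.14, edgeR adjusted p = 0.0412), a call lost without 24 h mouse A274 or A275 or 6 h mouse A240 or A242, and in 3 other alternatives. Hippocampus differed from cortex in the step from 6 h to 12 h by -0.59 ± 0.19, which missed the adjusted threshold (edgeR adjusted p = 0.455, unadjusted p = 0.00386).

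Per3, the Period paralogue least needed for the rhythm in mice (ENSMUSG00000028957.12, chr4:151003652-151044665), passed in no comparison. In hippocampus it averaged 24.0 ± 2.45, 23.7 ± 0.925 and 26.9 ± 1.37 CPM at 6, 12 and 24 h after LPS (SD, n = 4), against 27.1 ± 5.14 CPM after saline (SD, n = 3). In cortex it averaged 26.0 ± 4.61, 28.2 ± 2.69 and 27.8 ± 1.51 CPM after LPS, against 30.4 ± 4.09 CPM after saline. The saline libraries spread widely, from 22.6 to 32.7 CPM in hippocampus, and every LPS range overlapped with them.

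Cry1, the cryptochrome that closes the loop (ENSMUSG00000020038.9, chr10:85131700-85185064), was at 14.7, 14.7, 13.7 and 12.6 CPM in hippocampus 6 h after LPS, at 12.1, 12.6, 11.6 and 15.3 CPM after 12 h and at 15, 16.4, 18.5 and 17.5 CPM after 24 h, against 13.6, 14.3 and 12.4 CPM after saline. All 24 h libraries lay above all saline and all 6 h libraries, and 12 h mouse A261 reached into the 24 h range. At 24 h it was higher than after saline by 0.33 ± 0.10 (edgeR adjusted p = 0.0222) and than 12 h after LPS by 0.38 ± 0.09 (edgeR adjusted p = 0.0252). Each call was lost without 24 h mouse A276 or A278 and in the fit of both tissues. The first was also lost without saline mouse A222 or A226, and the second without 12 h mouse A258, A259 or A260. In cortex Cry1 averaged 21.9 ± 2.51, 24.3 ± 4.30 and 23.5 ± 3.19 CPM after LPS, against 21.8 ± 1.80 CPM after saline, with overlapping ranges and no call. The difference between tissues in the step from 12 h to 24 h was 0.44 ± 0.16 and did not pass (edgeR adjusted p = 0.424, unadjusted p = 0.00877).

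Nr1d1, the REV-ERB alpha gene (ENSMUSG00000020889.11, chr11:98767932-98775333), was at 80.3, 75.1, 75.7 and 78.6 CPM in hippocampus 6 h after LPS, at 72.8, 86.6, 73.1 and 70.6 CPM after 12 h and at 65.3, 70.7, 65.5 and 62.2 CPM after 24 h, against 78.5, 73.9 and 77.7 CPM after saline. The 24 h libraries all lay below saline and below 6 h, while the 6 h and 12 h ranges overlapped with saline. The 24 h fall was -0.22 ± 0.06 against saline (edgeR adjusted p = 0.0151) and -0.23 ± 0.06 against 6 h (edgeR adjusted p = 0.0113). The first was lost without saline mouse A222 or 24 h mouse A278 and under library totals alone, and both in the fit of both tissues. In cortex Nr1d1 averaged 93.0 ± 15.3, 94.6 ± 15.4 and 94.9 ± 8.23 CPM after LPS, against 101 ± 12.5 CPM after saline, with overlapping ranges and no call. Its exons overlap those of Thra on the opposite strand over 263 bases, and Thra differed from saline by between -0.05 and 0.05 in the 6 comparisons with saline.

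**Figure D4:**
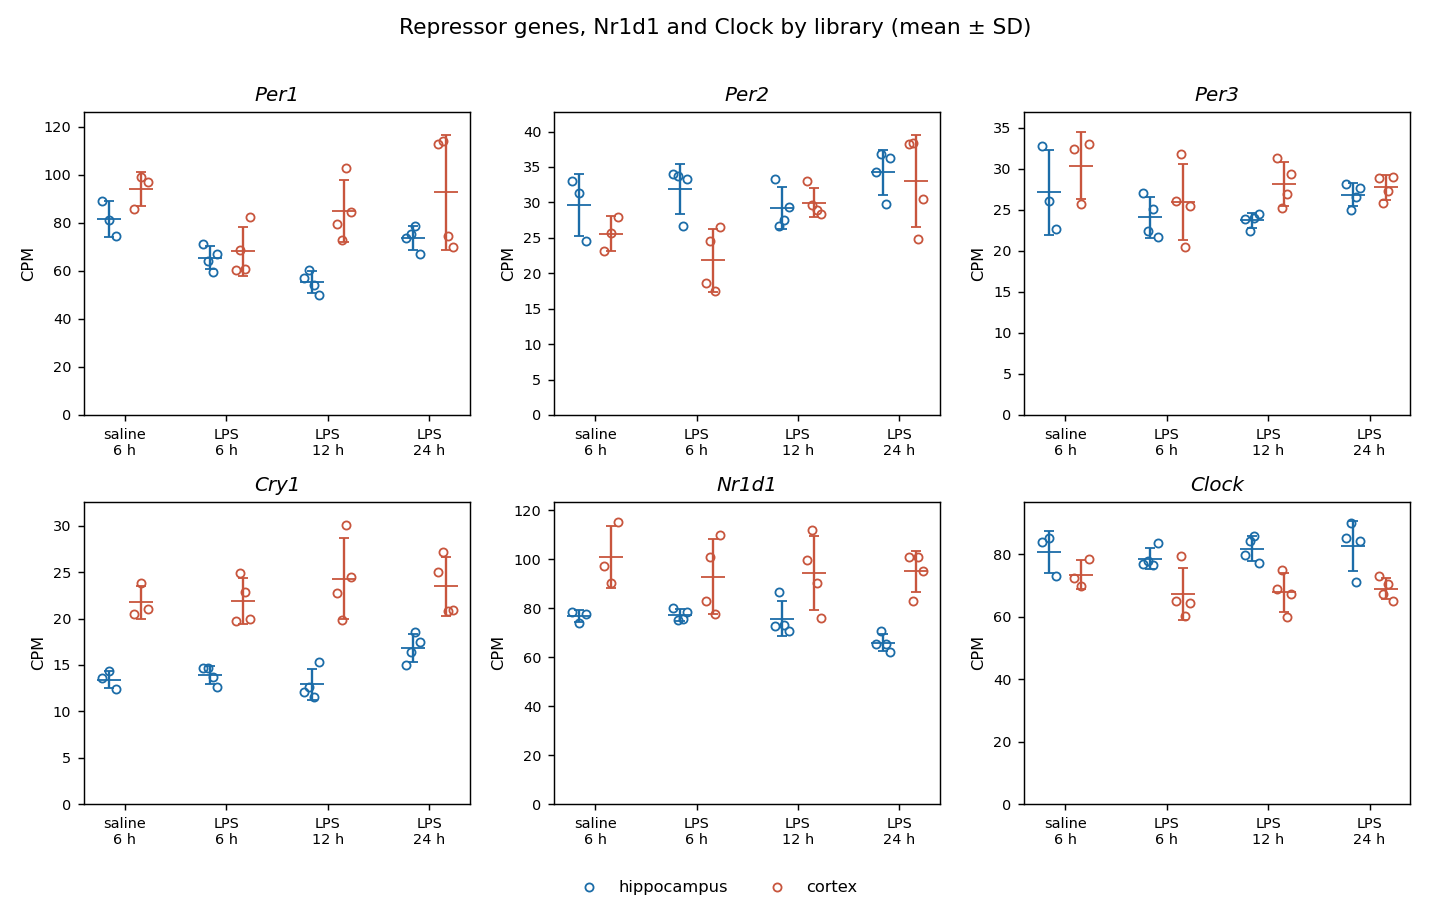
CPM of Per1, Per2, Per3, Cry1, Nr1d1 and Clock in each library (open points; hippocampus blue, cortex red) with the mean and SD, by group from saline 6 h to LPS 24 h. Hippocampal Per1 averaged 55.4 CPM 12 h after LPS, against 81.7 CPM after saline, and 2 cortical libraries of 24 h stand at 113 and 114 CPM.

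Variation among the 3 LPS times, without the saline group, was tested as well. In hippocampus 5 of 10 members differed among the times (Npas2, Per1, Cry1, Nr1d1 and Dbp; edgeR adjusted p = 0.00254, 0.00165, 0.0174, 0.0173 and 0.0169), where 8.36% of all genes did. In cortex 1 did (Dbp, edgeR adjusted p = 0.0208), where 1.36% of all genes did; it was lost without 6 h mouse A240, A241 or A242. In hippocampus the Npas2 call held under every alternative run. That of Dbp was lost without 6 h mouse A241 or A242, that of Cry1 without 24 h mouse A276 or A278, and that of Nr1d1 without 24 h mouse A274 or A278. Those of Per1, Cry1 and Nr1d1 were also lost in the fit of both tissues. By pairs of times in hippocampus, none of the members passed between 12 h and 6 h, where edgeR called 2.14% of all genes (3 members at an unadjusted p under 0.05; DESeq2 2, limma-voom 2). Between 24 h and 12 h 2 passed (2.14% of all genes), and between 24 h and 6 h 3 passed (9.49%). In cortex 1 member passed between 12 h and 6 h (1.23% of all genes) and 2 between 24 h and 6 h (1.83%). Between 24 h and 12 h no cortical member passed, nor any gene (0% called; 0 members and 310 genes at an unadjusted p under 0.05, and 0 genes in DESeq2 and limma-voom).

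The tissues were compared first in saline. Per kilobase of exon, Nr1d1 was highest in hippocampus saline (24.9 ± 0.792 CPM per kb, SD, n = 3), followed by Per1 (14.5 ± 1.32) and Dbp (9.81 ± 1.38), and then by Npas2, Clock, Per2, Bhlhe41 and Cry1 (6.72 to 4.03), whose neighbours lay within their spread. Arntl (3.33 ± 0.231) and Per3 (2.82 ± 0.535) were lowest and also within their spread of each other. In cortex saline the order again began with Nr1d1 (32.8 ± 4.05), Per1 (16.7 ± 1.27) and Dbp (15.5 ± 0.904), the last 2 within their spread, and ended with Arntl (3.45 ± 0.17) and Per3 (3.16 ± 0.425). At 12 h after LPS Dbp stood above Per1 in both tissues (13 ± 0.39 against 9.84 ± 0.802 CPM per kb in hippocampus, 23.0 ± 1.84 against 15.1 ± 2.33 in cortex; SD, n = 4), and at 24 h they lay within their spread in hippocampus (13.9 ± 1.16 against 13.1 ± 0.876).

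In saline mice 4 of 10 members were lower in hippocampus than in cortex and none was higher, where edgeR called 17.2% of all genes lower and 19.9% higher (37.1% in all). Cry1 was at 13.6, 14.3 and 12.4 CPM in hippocampus, against 20.5, 23.8 and 21.0 CPM in cortex, without overlap (-0.69 ± 0.13, edgeR adjusted p = 4.54e-05). Dbp was lower (-0.66 ± 0.08, edgeR adjusted p = 1.09e-07), Npas2 (-0.44 ± 0.10, edgeR adjusted p = 0.000498) and Nr1d1 (-0.40 ± 0.12, edgeR adjusted p = 0.00759; lost without cortex saline mouse A226). All 4 had every hippocampal library below every cortical one. The share of all genes without overlap was not counted, and in either direction the 4 of 10 called lay near the 37.1% of all genes. The cortical libraries also differed among themselves in striatal marker genes (5 genes, 174 to 694 CPM in saline, against 56.2 to 73.9 CPM in hippocampus saline), and their part was not tested.

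The response to LPS was then compared between tissues as an interaction. None of the 10 members passed at 6, 12 or 24 h against saline, where edgeR called 0, 0.0963 and 0.125% of all genes, or between successive LPS times, where it called 0% in both steps. At an unadjusted p under 0.05 there were 0, 0 and 1 members against saline, and 2 and 1 between times; DESeq2 and limma-voom called none. The unadjusted 95% interval of the difference between tissues (hippocampus minus cortex) for Dbp at 24 h ran from -0.19 to 0.24 on the log2 scale, and that for Npas2 at 24 h from -0.61 to -0.10. These intervals use the normal distribution and are somewhat narrower than the quasi-likelihood test implies. Both tissues were analysed in 14 of the 16 mice, so the members' deviations from their group means could be set side by side. Over these 14 mice Per2 gave the largest Pearson r between its tissues, 0.51 (Spearman 0.36), with an exact permutation p of 0.0877 (Spearman 0.25) over 27648 arrangements within groups and 0.772 after adjustment over the 10 members (Spearman 0.751). Without the 2 mice farthest from the median of the hippocampal deviations, r was 0.1. No relation between the tissues was established for Per2. For the other 9 members r lay between -0.27 and 0.36, with exact adjusted p of at least 0.772.

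Of 21 other clock genes, 2 were higher and 2 lower in hippocampus at 6 h, 2 and 4 at 12 h, and 5 and 3 at 24 h; in cortex the counts were 1 and 1, 2 and 1, and 1 and 1. Of all genes, 5.11, 12.3 and 13.4% were called in hippocampus at these times and 3.5, 7.12 and 6.11% in cortex. Their median log2 fold changes in these 6 comparisons lay between -0.08 and 0.10. Cry2, the second cryptochrome, was lower in hippocampus at all 3 times (-0.16 ± 0.05, -0.36 ± 0.05 and -0.18 ± 0.05; edgeR adjusted p = 0.0455, 7.08e-06 and 0.00908), lowest at 12 h as Per1 was. In cortex Cry2 was lower at 6 h (-0.30 ± 0.08, edgeR adjusted p = 0.0476). Nr1d2, which encodes REV-ERB beta, was higher in hippocampus at 12 h (0.18 ± 0.05, edgeR adjusted p = 0.0333) and 24 h (0.32 ± 0.05, edgeR adjusted p = 0.000218), the opposite sign to Nr1d1 at 24 h. Nr1d2 was at 98.0, 104, 113 and 102 CPM 24 h after LPS, against 85.2, 81.5 and 84.4 CPM after saline, without overlap.

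Usp2, a deubiquitinase gene with clock-driven expression, was lower at 12 h and 24 h in both tissues (-0.32 ± 0.07 and -0.30 ± 0.07 in hippocampus, -0.34 ± 0.09 and -0.31 ± 0.09 in cortex; edgeR adjusted p = 0.00279, 0.00446, 0.0176 and 0.0372). Rorb, an activator at ROR elements, was higher in hippocampus at 6 h and 24 h (0.42 ± 0.10 and 0.45 ± 0.10; edgeR adjusted p = 0.0145 and 0.00381), and Fbxw11, an F-box protein gene of PER turnover, was lower there at all 3 times (-0.20 ± 0.04 each; edgeR adjusted p at most 0.00527). Rorb is also among the cortical marker genes summed above, chosen as higher in cortex. The part of dissection in its values was not tested. Timeless, whose mammalian product acts mainly at replication forks, was higher at all 3 times in both tissues (0.62 to 0.83; edgeR adjusted p at most 0.0152). Tef, the PAR bZIP relative of Dbp, was higher in cortex at 12 h (0.39 ± 0.09, edgeR adjusted p = 0.012), and the third relative, Hlf, passed at no time. Ciart was lower in hippocampus at 12 h (-0.41 ± 0.13, edgeR adjusted p = 0.0441) and higher at 24 h than at 12 h (0.54 ± 0.13, edgeR adjusted p = 0.0229), as Per1 was over the same interval. In saline, 3 of the 21 were higher and 10 lower in hippocampus than in cortex (19.9% and 17.2% of all genes), led by the ROR genes Rorb (-1.82 ± 0.14, edgeR adjusted p = 2.29e-12) and Rora (-1.45 ± 0.13, edgeR adjusted p = 1.53e-10).

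Likeness to Dbp and to Arntl was measured as Pearson's r over the 30 libraries after removal of each tissue's mean, among 13189 genes, so it holds the differences between groups as well as those between mice. Among the genes most like Dbp were Lpcat2 (0.90), AI506816 (0.89), Igfbp7 (0.89) and Casp8 (0.88). Those most like Arntl were Csdc2 (0.81), Rilpl1 (0.80), Pabpc1l2b-ps (0.80), Kbtbd11 (0.78) and Xdh (0.78). Among the members, Bhlhe41 had r = 0.75 with Dbp and Npas2 r = 0.69 with Arntl. Arntl had r = -0.84 with Dbp, rank 13158 of 13189 genes, and Npas2 r = -0.72. The libraries share treatment groups, and no test was made of these values.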

How the data were processed

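Stranded poly(A) libraries of hippocampus and frontal cortex were read as pairs of 150 bp, per the labels' protocols. The deposited table holds whole read counts for each gene in 30 libraries. The tools named in the submitters' processing notes are STAR 2.6.0a, DESeq2, FastQC and Trim Galore 0.4.1, and the build is GRCm38. The sources used here do not give the counting tool, its strand setting or its annotation, so counts of genes that overlap on opposite strands are uncertain. Per the labels, the authors had excluded a hippocampal saline library; it was not analysed here. P-values measure the spread between mice of a group.

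GENCODE M21 gave symbols for 48058 of 48820 identifiers; 15948 identifiers had no counts. Coordinates are on GRCm38, counted from 1. Between libraries of a group the chi-square per gene was 2.23 to 25.0, above sampling noise, so each library counted as 1 sample. Total counts per library, which set the precision, are in the report. The main test was edgeR 4.0.16 (R 4.3.3), with TMM factors, filterByExpr (count at least 10, total at least 15), glmQLFit with robust estimation and two-sided glmQLFTest. The 15 libraries of a tissue shared a fit (17289 genes tested in hippocampus, 17111 in cortex). A fit of all 30 libraries (17650 genes) gave the tissue comparisons and the CPM. P-values were adjusted by Benjamini-Hochberg over all genes of each of the 20 comparisons, with a threshold of 0.05. Code was tested on simulated data.

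Tissues are paired by the mouse codes in the labels. Over 10601 genes, deviations from group means had a median correlation of 0.108 between tissues of 1 mouse (from -0.177 to 0.411; above 0.1 in 7 of 14 mice). The main fits had no block. As alternatives, scaling was by DESeq2 size factors or by library totals; the filter was dropped or raised to 1 CPM with 10 reads in at least 4 libraries; DESeq2 1.42.0 or limma-voom (limma 3.58.1) replaced edgeR. The fit held compared groups alone, or both tissues, or (for comparisons between tissues only) the mouse as a block, and each library was left out. Leaving out hippocampus A222 and A261 together was chosen after seeing the data. The 10 members and all gene lists were chosen with earlier results of these data known. All members are named. Other clock genes are named up to 6 a comparison and other lists up to 4, called ones by size. Of the genes whose pattern is most like Dbp, 1 is not reported here.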

Additional observations from a re-analysis of the deposited data

Results flagged for a closer look

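In 60 combinations of a member and a group of 4 libraries, 2 had a library far from the other 3; chance gives about 1 in 20. Per2 was at 26.7 CPM in hippocampus 6 h after LPS in mouse A242, below the other 3 (33.3 to 34.0 CPM). Nr1d1 was at 86.6 CPM in hippocampus 12 h after LPS in mouse A259, above the other 3 (70.6 to 73.1 CPM). Neither group was called against saline for that gene.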

How the results depend on the processing

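Over 3670 values of single members under alternatives, 3516 kept their side of the threshold, 94 called values lost the call and 60 uncalled ones gained it. Of the fold changes called in the main or the alternative run, 0 turned round. Direction was not compared where neither run called the gene, and the tests among all LPS times have no direction. With other scalings the median of all genes moved by at most 0.0786 on the log2 scale. The mouse as a replicate block, fixed or random, left the tissue interactions at 0 members called and the saline tissue comparison at 4. The comparisons within a tissue were not run with a block.

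Counts of members called moved by more than 1.5 times as follows; other counts stayed within that. In hippocampus at 6 h against saline they were 2 with no filter, 4 in limma-voom, 0 with both tissues in 1 fit, 2 with the compared groups alone and 0 without A222 and A261. At 24 h they were 3 with both tissues and 3 without A222 and A261. For 12 h against 6 h they were 3 with no filter and 2 in DESeq2, limma-voom and the compared groups alone; for 24 h against 12 h, 4 with no filter, 0 with both tissues and 1 with the compared groups alone; for 24 h against 6 h, 6 with no filter; and among all LPS times 2 with both tissues. In cortex at 6 h they were 1 with no filter and in DESeq2, and 2 in limma-voom, with both tissues and with the compared groups alone. At 12 h they were 2 with library totals and with the compared groups alone, and at 24 h 4 with both tissues. For 24 h against 6 h they were 1 with no filter and with the compared groups alone and 0 in limma-voom, and among all LPS times 2 in DESeq2 and with both tissues. Between saline tissues limma-voom called 7. The cause of these moves was not tested.

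With 1 library left out at a time, hippocampal counts ran from 0 to 3 at 6 h, 3 to 5 at 12 h and 2 to 5 at 24 h against saline, 0 to 2 for 12 h against 6 h, 1 to 3 for 24 h against 12 h, and 3 to 5 for 24 h against 6 h and among all LPS times. Cortical counts were 0 at 6 h, ran from 1 to 4 at 12 h and 1 to 3 at 24 h, were 1 for 12 h against 6 h and 0 for 24 h against 12 h, and ran from 0 to 2 for 24 h against 6 h and among all LPS times. Between saline tissues they ran from 3 to 5, and for the interactions they were 0. Groups of 3 and 4 libraries limit what can be called. Cry1, with the lowest mean level in each hippocampal group, was measured least precisely there by counting error. In cortex this did not hold for every group, since Arntl averaged 20.6 CPM and Cry1 23.5 CPM at 24 h.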
